A study of Mus musculus with 4 samples.

Results

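The Period and cryptochrome genes Per1, Per2, Per3, Cry1 and Cry2 were described by the CTCF binding sites listed around them in mouse liver. The members are all listed sites that touch the body of any of these 5 genes or the 200 kb on either side, with gene positions from the GENCODE annotation of mm9. They number 27 of the 10113 sites listed at ZT0 and 20 of the 6799 listed at ZT12. CTCF-bound DNA was recovered with an antibody and sequenced (ChIP-seq) from livers of wild type male C57BL/6 mice. At 8 weeks old the mice were kept for 2 weeks in 12 h of light and 12 h of darkness, fed ad libitum. Livers were taken at ZT0 (lights on) or ZT12 (lights off), with 2 biological replicates at each time, and the study's methods describe replicates dissected in this way as pools of 2 livers. Each time has a single list of peak positions, labelled as FIMO (motif) filtered and covering both replicates. A list names only the chromosome, start and end of each site. Without scores or values per replicate, the depth behind a site and its spread are unknown, and no difference between the times could be tested. The lists are shorter than the full set of CTCF peaks described in the study's text, which was not used here, so counts and shared shares hold for these lists alone.

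PER and CRY proteins form the negative limb of the circadian clock: they gather in complexes that enter the nucleus and repress CLOCK and BMAL1, the activators that drive transcription of the Per and Cry genes themselves. In liver this loop times metabolic genes over the day, and PER proteins build up towards the night. CTCF is a zinc finger protein that binds a long, directional DNA motif and stops the cohesin complex as it extrudes chromatin loops, so that loops often end at pairs of CTCF motifs that point towards each other.

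All 5 genes had at least 1 CTCF site in their windows at both times. A site was also present in the windows of 79.1% of all 22350 protein-coding genes at ZT0 and of 72.4% at ZT12, so a listed site within 200 kb is common. Sites inside the genes were fewer: 2 of the 5 genes, Per2 and Cry1, held a site in the gene body at ZT0, against 18.2% of all protein-coding genes, and only Per2 did so at ZT12, against 12.6%. The number of sites in a window ran from 4 at Cry1 and Cry2 to 7 at Per1 and Per3 at ZT0, and from 1 at Cry1 to 9 at Per1 at ZT12. Across all protein-coding genes the median was 3.0 sites at ZT0 and 2.0 at ZT12. In the lists as deposited, Per1 was the only gene of the 5 with more sites at ZT12 than at ZT0, although the whole ZT12 list is the shorter of the lists. With the ZT0 list cut to its widest sites, as many as at ZT12, 15 ZT0 sites remained around the 5 genes beside 20 at ZT12. Which time had more sites around the 5 genes together thus depended on which sites were kept. The cut list was not counted gene by gene.

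In the lists as deposited, most sites around these genes were listed at both times. At ZT0, 18 of 27 sites were shared, meaning that they overlapped a site of the other list by at least 1 bp (66.7%, 95% Wilson interval 47.8 to 81.4%), beside 56.2% over the whole ZT0 list. At ZT12, 18 of 20 sites were shared (90.0%, 95% Wilson interval 69.9 to 97.2%), beside 83.6% over the whole ZT12 list. Both intervals hold the whole-list share, and they cover counting error only. The 9 sites listed at ZT0 only were spread over Per3 and Cry1 with 3 each, Per2 with 2 and Cry2 with 1. The 2 sites listed at ZT12 only both lay around Per1. A site absent from a list did not pass the steps that made the list, and its signal at that time, or its place in the full set of peaks, is not known. The ZT12 share depended on which sites were kept: it was 50% (5 of 10), below a ZT0 share of 55.6% (5 of 9), with only sites at least as wide as the median of their list. With the ZT0 list cut to its widest sites, as many as at ZT12, it was 60%, below the ZT0 share of 80.0%. As shared sites pair 1 to 1, both shares have the same numerator, and their order follows from how many sites each list keeps.

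The distance from the transcription start to the nearest site placed the genes in a different order at each time. At ZT0 the order was Cry1 at 1.05 kb, Per2 at 24.0 kb, Per1 at 27.4 kb, Per3 at 28.8 kb and Cry2 at 51.6 kb. At ZT12 it was Per1 at 2.44 kb, Per2 at 30.3 kb, Cry1 at 35.9 kb, Cry2 at 51.6 kb and Per3 at 96.8 kb. Over all protein-coding genes the median distance was 47.7 kb at ZT0 and 76.1 kb at ZT12. Cry1 at ZT0 and Per1 at ZT12 thus had a site close to their promoters, with only 7.13% and 6.43% of protein-coding genes having a nearer site in the same list. The nearest ZT0 sites of Cry1, Per2 and Per3 were narrow, wider than 23.1%, 15.8% and 6.93% of their list. The nearest ZT12 sites of Per2 and Cry1 were narrow too, wider than 22.4% and 16.2% of their list. Both orders therefore hold only where narrow sites are kept. Each order rests on a single list, so no spread says which neighbours in it differ.

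Per1, a light-responsive member of the PER family, is the shortest of the genes at 14.7 kb (chr11:68908719-68923462, plus strand, ENSMUSG00000020893.11) and lies among 19 other protein-coding genes in its window. Its 7 ZT0 sites were all listed again at ZT12. With the 2 further sites the ZT12 window held 21.7 sites per Mb, where the whole ZT12 list has 2.58 per Mb of genome, and 2.01% of protein-coding genes had more sites. At ZT0 the window held 16.9 sites per Mb, and 14.4% of genes had more.

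The ZT12-only site nearest to Per1, chr11:68905820-68906277, lay between genes, 2.44 kb upstream of the start of Per1, and no other protein-coding start was nearer to it. At 458 bp it was the widest of the 20 ZT12 sites and wider than 94.2% of its list. Its best motif match was among the poorest, at 8.90 bits, with only 1.75% of the ZT12 list scoring lower. Scores here are log-odds in bits under a 19 bp CTCF weight matrix that was learned from sites on other chromosomes. The other ZT12-only site, chr11:68963985-68964184, was its opposite in both measures. It lay between genes 40.5 kb beyond the end of Per1 and 6.31 kb from the start of Alox12b, a lipoxygenase gene of the epidermis. Its width of 200 bp exceeded that of 0.632% of the list, and its score of 22.80 bits exceeded that of 91.6%.

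The shared sites around Per1 that frame the gene were a site between genes upstream and a site in an exon of Hes7 downstream. The upstream site, chr11:68880494-68880725 at ZT0 and chr11:68880439-68880746 at ZT12, lay 28.0 kb before the start of Per1 and 3.58 kb from the start of Tmem107, a gene of the ciliary transition zone. The downstream site, chr11:68936092-68936489 at ZT0 and chr11:68936150-68936414 at ZT12, lay 12.6 kb beyond Per1. Hes7 encodes a repressor of the oscillator that times somite formation in the embryo. The site also lay within 1 kb of the start of the lincRNA 9130213A22Rik and was rich in GC, with 72.9% G or C and 48 CpG dinucleotides in its ZT0 extent. The motifs of the pair pointed towards each other and enclosed 55.4 kb at ZT0 with the protein-coding starts of Tmem107, Vamp2, Per1 and Hes7. At ZT12 the ZT12-only site upstream of Per1, whose motif had the same direction as that of the upstream shared site, stood between them. The nearest sites on either side of Per1 were then 29.9 kb apart, again with motifs towards each other, and the protein-coding starts between them were those of Per1 and Hes7. The direction on the upstream side came from the poor match of 8.90 bits.

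The motif matches at these sites show how far the sites nearest to Per1 stand from the learned consensus, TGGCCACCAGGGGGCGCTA. The match of the ZT12-only site near the start equalled it at 12 of 19 positions, that of the far ZT12-only site at 14, and those of the shared sites at 13 each. The far ZT12-only site was chosen for display after its values were seen. Each sequence is read 5′ to 3′ on the strand of the match in mm9, with the match in capitals and 10 bases on either side.
Per1 ZT12-only site upstream, chr11:68906022-68906060, plus strand: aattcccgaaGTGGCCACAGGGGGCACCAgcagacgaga
Per1 shared site upstream, chr11:68880558-68880596, plus strand: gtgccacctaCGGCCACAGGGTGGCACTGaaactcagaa
Per1 shared site in Hes7, chr11:68936286-68936324, minus strand: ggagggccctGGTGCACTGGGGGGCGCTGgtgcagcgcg
Per1 ZT12-only site downstream, chr11:68964104-68964142, minus strand: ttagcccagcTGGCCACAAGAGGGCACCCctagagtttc

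The remaining 5 shared sites of the Per1 window lay farther out. Upstream, chr11:68714753-68715115 covered the start of the ribosomal protein gene Rpl26, 194 kb from Per1, and was 363 bp wide at ZT0 and 400 bp at ZT12. The site chr11:68849472-68849720 lay in an exon of 1500010J02Rik, 59.0 kb upstream and 9.43 kb from the start of Aurkb, a mitotic kinase, and measured 249 bp at ZT0 and 363 bp at ZT12. Downstream, chr11:68985252-68985550 lay between genes, 61.8 kb beyond Per1 and 14.8 kb from the start of Alox12b, and narrowed from 299 bp at ZT0 to 250 bp at ZT12. The outermost downstream sites formed a close pair between genes, at least 32.6 kb from the start of Gucy2e. They were chr11:69083156-69083441, which went from 286 bp at ZT0 to 201 bp at ZT12, and chr11:69085908-69086129, which went from 222 to 380 bp. This pair stood 2.47 kb apart at ZT0 with motifs in the same direction, and their scores were far from each other, at 11.80 and 22.73 bits.

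Per2, a core repressor whose loss shortens and then abolishes rhythms in mice, spans 43.3 kb (chr1:93312561-93355907, minus strand, ENSMUSG00000055866.7) with 10 other protein-coding genes in its window. Its window held 5 sites at ZT0, of which 3 were shared, and the same 3 at ZT12. In sites per Mb this was 11.3 at ZT0 and 6.77 at ZT12. Per2 was the only gene of the 5 with a site inside its body at both times. That site, chr1:93325324-93325558 at ZT0 and chr1:93325348-93325583 at ZT12, lay in intron 17 of 22, 30.3 kb from the start. It was 235 bp wide at ZT0 and 236 bp at ZT12, the smallest change in width of all 18 shared sites, and its motif scored 18.96 bits.

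Both ZT0-only sites of Per2 lay upstream of its start. The nearer, chr1:93379948-93380189, lay between genes at 24.0 kb and 11.1 kb from the start of Traf3ip1, a gene of intraflagellar transport. It was 242 bp wide, narrower than most of its list, with a motif score of 22.99 bits that exceeded 93.1% of the ZT0 list. The farther, chr1:93420350-93420648, lay 64.4 kb upstream in an intron of Traf3ip1, with 299 bp and 18.01 bits. The nearer site has a strong match on the minus strand, which pointed towards the shared sites below Per2. At ZT0 the nearest sites beyond the ends of Per2 were therefore convergent and enclosed 117 kb with the starts of Ilkap, Hes6 and Per2. At ZT12, with neither of the ZT0-only sites listed, the next site on that side lay 503 kb from Per2. The stretch between the flanking sites grew to 596 kb with 7 protein-coding starts, Hdac4 among them.

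The site inside Per2 is printed whole, on the plus strand of mm9, because it is the only listed site within a PER gene, and the ZT0-only site is shown as its match on the minus strand with 10 bases on either side. Capitals mark the motif match in both. The whole site holds 46.8% G or C and 3 CpG dinucleotides, none of them in the match.
Per2 intron 17 site, chr1:93325324-93325558, plus strand: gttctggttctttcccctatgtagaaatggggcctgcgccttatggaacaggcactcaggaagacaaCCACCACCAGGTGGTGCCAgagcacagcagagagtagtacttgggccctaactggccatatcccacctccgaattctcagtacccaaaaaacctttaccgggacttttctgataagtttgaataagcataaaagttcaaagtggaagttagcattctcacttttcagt
Per2 ZT0-only site upstream, chr1:93380063-93380101, minus strand: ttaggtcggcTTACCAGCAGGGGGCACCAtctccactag

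The other shared sites of Per2 lay below its end and narrowed at ZT12. The site chr1:93262723-93263202 covered the start of Fam132b, which encodes the iron regulator erythroferrone, 49.4 kb from Per2. At 480 bp it was the widest of the 27 ZT0 sites, with 70.0% G or C, 52 CpG dinucleotides and 4 of them in its match, and it measured 323 bp at ZT12. The site chr1:93243456-93243873 lay in an exon of Espnl, 68.7 kb from Per2 and 3.72 kb from the start of Klhl30. It went from 418 bp at ZT0 to 224 bp at ZT12, the largest narrowing among the shared sites.

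Per3, which encodes a PER protein that is largely dispensable for rhythms in mice, spans 41.0 kb (chr4:150377761-150418774, minus strand, ENSMUSG00000028957.6) beside 7 other protein-coding genes. Its window held 7 sites at ZT0 (15.9 per Mb) and 4 at ZT12 (9.07 per Mb), and all 4 were shared. No site lay in the gene at either time. The nearest ZT0 site, chr4:150447601-150447824, was ZT0-only and lay 28.8 kb upstream in an intron of Camta1, a transcription factor gene expressed in brain, 15.5 kb from the start of Vamp3. It was 224 bp wide and scored 20.66 bits, above 75.2% of its list. At ZT12 the nearest site was a shared one in the same gene, 96.8 kb from the start of Per3, and 55.5% of protein-coding genes had a nearer site.

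The 3 sites of Camta1 farther upstream of Per3 differed in whether they were listed at ZT12. The site chr4:150513595-150513926, 332 bp wide and within 1 kb of a Camta1 transcript start, was ZT0-only and had 65.1% G or C. Only 1.73 kb from it, the site chr4:150515661-150516074 of 414 bp was shared, with 394 bp at ZT12 and a motif score of 22.05 bits, and both motifs lay on the minus strand. The third, chr4:150531135-150531350, 112 kb from Per3, was 216 bp wide at ZT0 and 218 bp at ZT12. Its score of 25.58 bits was the highest of all sites around the 5 genes and higher than 99.7% of either list, with 18 of 19 positions equal to the consensus.

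Beyond the end of Per3, a shared pair of sites lay in Park7, the gene of the oxidative stress protein DJ-1. They were chr4:150272822-150273129, in an intron, and chr4:150275831-150276127, within 1 kb of the start of a Park7 transcript, 2.70 kb apart at ZT0 with both motifs on the minus strand. The former went from 308 bp at ZT0 to 227 bp at ZT12 with its midpoint shifted by 100 bp, the largest shift of all shared sites, and the latter from 297 to 378 bp. The third ZT0-only site, chr4:150228920-150229191, lay 149 kb from Per3 and within 1 kb of the start of Errfi1, a feedback inhibitor of the epidermal growth factor receptor. It was 272 bp wide with 66.2% G or C, 4 CpG dinucleotides in its match and a score of 10.81 bits, above 4.75% of its list. The nearest sites on either side of Per3 enclosed 171 kb at ZT0 with motifs pointing apart, and 239 kb at ZT12 with motifs in the same direction.

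The matches of the site nearest to Per3 and of the nearest shared sites on either side are given with that of the site with the highest score, which was singled out after its values were seen. Each is read 5′ to 3′ on the strand of the match in mm9, with the match in capitals and 10 bases on either side.
Per3 ZT0-only site in Camta1, chr4:150447647-150447685, plus strand: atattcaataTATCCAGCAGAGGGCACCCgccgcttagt
Per3 shared site in Park7, chr4:150275937-150275975, minus strand: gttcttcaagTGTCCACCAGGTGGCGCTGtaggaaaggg
Per3 shared site nearest upstream, chr4:150515816-150515854, minus strand: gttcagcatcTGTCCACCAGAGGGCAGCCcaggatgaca
Per3 shared site with the highest score, chr4:150531233-150531271, plus strand: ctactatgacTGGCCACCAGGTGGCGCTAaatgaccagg

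Cry1, a strong repressor whose loss shortens the period in mice, is the longest of the genes at 53.4 kb (chr10:84594447-84647799, minus strand, ENSMUSG00000020038.9), with 5 other protein-coding genes in its window. It had 4 sites at ZT0 (8.82 per Mb) and 1 at ZT12 (2.21 per Mb), the lowest count of the 5 genes at that time. Of the 4 ZT0 sites, 3 were ZT0-only, and 55% of protein-coding genes had more sites than Cry1 at ZT12. The ZT0-only site chr10:84646496-84646752 lay inside the gene, in intron 1 of 12, which is 27.1 kb long. It stood 0.306 kb beyond the end of exon 1 and 1.05 kb from the transcription start.

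The motif in the Cry1 intron was weak. It scored 12.57 bits, above 9.42% of the ZT0 list, equalled the consensus at 11 of 19 positions and did not pass the stricter motif threshold of 12.92 bits. The site was 257 bp wide with 44.4% G or C, and no site was listed within Cry1 at ZT12. The only site of Cry1 listed at both times was chr10:84683706-84684016, between genes 35.9 kb upstream, with no protein-coding start nearer than that of Cry1. It measured 311 bp at ZT0 and 226 bp at ZT12 and scored 20.09 bits. The intron site is printed whole on the plus strand of mm9, because it is the listed site closest to the start of any of the 5 genes, and the shared site as its match with 10 bases on either side. Capitals mark the match.
Cry1 intron 1 site, chr10:84646496-84646752, plus strand: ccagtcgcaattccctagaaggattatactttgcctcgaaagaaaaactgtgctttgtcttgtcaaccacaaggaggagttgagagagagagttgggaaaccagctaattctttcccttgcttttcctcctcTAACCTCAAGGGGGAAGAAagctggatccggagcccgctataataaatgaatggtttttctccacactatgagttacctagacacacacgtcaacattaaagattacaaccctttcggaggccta
Cry1 shared site upstream, chr10:84683820-84683858, plus strand: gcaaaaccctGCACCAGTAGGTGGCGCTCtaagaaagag

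The other ZT0-only sites of Cry1 formed a pair 1.05 kb apart between genes, at least 84.7 kb beyond its end and 55.5 kb from the start of Fhl4. The site chr10:84508121-84508453 was 333 bp wide with a score of 9.21 bits, above 2.03% of its list, and chr10:84509505-84509720 was 216 bp wide with 16.21 bits. Both motifs lay on the minus strand. The sites beyond the ends of Cry1 enclosed 174 kb at ZT0, with motifs pointing apart and the starts of Fhl4, AI597468, Mterfd3 and Cry1 between them. At ZT12 the next site on the far side lay 616 kb from Cry1. The stretch without a listed site was then 705 kb long and held 10 protein-coding starts.

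Cry2, the second cryptochrome, whose loss lengthens the period in mice, spans 30.4 kb (chr2:92243803-92274200, minus strand, ENSMUSG00000068742.5) beside 7 other protein-coding genes. Its window held 4 sites at ZT0 (9.29 per Mb), of which 3 were shared, and the same 3 at ZT12 (6.97 per Mb). Its nearest site was the same at both times, 51.6 kb upstream of the start, and 51.7% of protein-coding genes had a nearer ZT0 site. That site was part of a close pair within an intron of the lincRNA Gm13814, 25.1 kb from the start of Slc35c1, a fucose transporter gene.

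The paired sites near Cry2 were the closest neighbours around any of the 5 genes. They were chr2:92325766-92326166, of 401 bp at ZT0 and 364 bp at ZT12, and chr2:92326568-92326938, of 371 bp and 403 bp in the same order. The gap between them was 0.401 kb at ZT0 and 0.311 kb at ZT12, and their motifs pointed towards each other with scores of 16.23 and 16.76 bits. They were the only convergent pair among neighbouring sites less than 10 kb apart. Such close pairs numbered 5 at ZT0 and 3 at ZT12. Over the whole lists 14.3% of 1480 close pairs were convergent at ZT0 and 13.7% of 776 at ZT12. Each match is given on its own strand of mm9, 5′ to 3′, with the match in capitals and 10 bases on either side.
Cry2 shared pair, first site, chr2:92325945-92325983, plus strand: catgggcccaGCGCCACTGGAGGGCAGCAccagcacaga
Cry2 shared pair, second site, chr2:92326740-92326778, minus strand: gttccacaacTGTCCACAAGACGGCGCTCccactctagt

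Farther from Cry2, the shared site chr2:92449097-92449365 lay 175 kb upstream in an intron of Chst1, a sulfotransferase gene, and went from 269 bp at ZT0 to 247 bp at ZT12. The only ZT0-only site, chr2:92171014-92171246, lay 72.6 kb beyond the end of Cry2, within 1 kb of a transcript start of Phf21a, which encodes a subunit of a histone demethylase complex. It was 233 bp wide, with 42.9% G or C and a score of 16.84 bits. The sites on either side of Cry2 had motifs pointing apart at both times and enclosed 155 kb at ZT0 and 427 kb at ZT12.

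Every site around the 5 genes held a CTCF motif match at a match p of 0.0001 per position. The matches numbered 27 of 27 at ZT0 and 20 of 20 at ZT12, beside 99.1% and 98.9% of the whole lists and 13.8% of regions 5 kb from ZT0 sites and 13.4% of those 5 kb from ZT12 sites. The lists are labelled as filtered by a motif search, so a share near the whole is partly fixed by how they were made. At a match p of 0.00001 the shares were 85.2% at ZT0 and 90.0% at ZT12, beside 89.3% and 90.5% of the whole lists. The 4 ZT0 sites that missed this threshold were the outer Per1 site at 11.80 bits, the Errfi1 site near Per3, and the Cry1 sites at 9.21 and 12.57 bits, and 3 of them were ZT0-only. The ZT12 sites that missed it were the same outer Per1 site and the ZT12-only site near the start of Per1, at 8.90 bits. The median score of the 27 ZT0 sites was 17.03 bits, beside 18.28 over the list, and that of the 20 ZT12 sites was 17.89 bits, beside 18.47.

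Sites of these genes that were listed at both times had a higher median width and motif score than the others at ZT0, as in the whole list. The median width at ZT0 was 304 bp for the 18 shared sites and 257 bp for the 9 ZT0-only sites, beside 346 and 277 bp over the whole list. The median motif score at ZT0 was 17.89 bits for shared and 16.49 bits for ZT0-only sites, beside 18.65 and 17.79 bits. At ZT12 the median width was 286 bp for the 18 shared sites, beside 293 bp for shared and 250 bp for ZT12-only sites of the whole list. The 2 ZT12-only sites of Per1, at 458 and 200 bp, were the widest and the narrowest of the 20, with a median of 329 bp. The median score at ZT12 was 17.89 bits for shared sites and 15.85 bits for these 2, beside 18.63 and 17.90 bits. The part of peak width and motif strength in whether a site was listed at a time was not tested. The 18 shared sites kept their motif: the best match was at the same place at both times in 18 of 18 pairs, beside 98.9% over the whole list. The midpoint of a pair moved by at most 100 bp.

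The shared sites did not all narrow together between the times. Of the 18 pairs, 10 were narrower and 8 wider at ZT12, with a median ZT12 minus ZT0 difference of -21.0 bp and a range from -194 to 158 bp. Over the 5671 overlapping pairs of the whole lists, 71.2% were narrower at ZT12, with a median difference of -47.0 bp. Per1 held the largest widening, at the site chr11:69085908-69086129, and Per2 the largest narrowings, at Espnl and Fam132b. Of the 8 pairs that were wider at ZT12, 4 lay around Per1, 2 around Per3 and 1 each around Per2 and Cry2.

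At ZT0 close neighbours were found around each gene apart from Per2. In that list 10 of the 27 sites had another ZT0 site within 10 kb (37.0%), beside 26.6% over the list, and at ZT12 6 of the 20 did (30%), beside 21.2%. Among the 22 pairs of neighbouring ZT0 sites within the windows, 5 were convergent, 8 divergent and 9 in the same direction. Among the 15 ZT12 pairs there were 3, 4 and 8. Over all neighbouring pairs of the whole lists, at any distance, 26.1% were convergent, 26.1% divergent and 47.8% in the same direction at both times. Of the 5 ZT0 pairs less than 10 kb apart, 4 had both motifs in the same direction, beside 55.4% of the 1480 such pairs of the whole list.

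The annotation of the sites was mixed. Of the 27 ZT0 sites, 7 lay within 1 kb of an annotated transcription start, of which none was a start of Per or Cry, and these were set apart first, the sites in Hes7 and near Errfi1 among them. Of the others, 10 lay in introns, 8 between genes and 2 in exons, those of 1500010J02Rik and Espnl. The share near a start was 25.9% at ZT0, beside 20.4% over the whole list, and 20% at ZT12, beside 20.4%. Relative to the gene, 13 ZT0 sites lay upstream, 12 downstream and 2 inside. Both inside sites lay in introns, and no site fell in an exon of any of the 5 genes.

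The clock activators and the nuclear receptors of the clock, which drive or modulate transcription in the same loop, were described in the same way. The windows of Arntl, Clock and Npas2 held 7 ZT0 sites, of which 3 were shared (42.9%, 95% Wilson interval 15.8 to 75%), and 4 ZT12 sites, of which 3 were shared. All of the shared sites lay around Npas2. The windows of 5 nuclear receptor genes held 27 ZT0 sites, of which 15 were shared (55.6%, 95% Wilson interval 37.3 to 72.4%). Of their 16 ZT12 sites, 15 were shared (93.8%, 95% Wilson interval 71.7 to 98.9%). Nr1d1 alone held 18 of the ZT0 sites of the receptors and 12 of the shared ones. Both ZT0 intervals hold the 56.2% of the whole ZT0 list and overlap that of the Period and cryptochrome genes. Both ZT12 intervals hold the 83.6% of the whole ZT12 list. At ZT0 every gene of the 3 groups had a site in its window, beside 79.1% of all protein-coding genes. At ZT12 all 5 Period and cryptochrome genes had a site in their windows, beside 2 of the 3 activators, 3 of the 5 receptors and 72.4% of all protein-coding genes. With a 50 kb flank 3 of the Period and cryptochrome genes had a ZT12 site. The median distance from the start to the nearest ZT0 site was 27.4 kb for the Period and cryptochrome genes, 63.6 kb for the activators and 51.8 kb for the receptors. For the nearest ZT12 site it was 35.9 kb for the Period and cryptochrome genes, 199 kb for the activators and 423 kb for the receptors. The medians cover few genes and a wide range. Among the activators the nearest ZT0 site lay from 0.666 kb (Npas2) to 164 kb (Clock) away, and Npas2 had no ZT12 site nearer than 199 kb. The differences between the groups were not tested.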

How the data were processed

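CTCF ChIP-seq was measured in livers at ZT0 and ZT12 with 2 replicates each. The authors aligned reads with Bowtie2 to NCBIM37/mm9, kept those of sufficient mapping quality (SAMtools), discarded duplicates (Picard) and used MACS2 for peak calling. The deposited lists hold other values than signal, namely peak start and end positions. How replicates were combined is not stated in the sources used here. Depth is unknown, and with no expression values the labelled tissue could not be checked against markers. Members were sites overlapping the 5 gene bodies extended by 200 kb (GENCODE, NCBIM37). Positions are printed counted from 1. Sites overlapping by at least 1 bp were shared. The 19 bp weight matrix was learned over 3 rounds from ZT0 sites on 13 autosomes that hold none of the 5 genes, started from the most enriched 12 bp word. Convergent, divergent and tandem refer to the strand of the best match. All 5 genes and all their sites are named, and sequences are those of the nearest and adjoining sites unless stated. The members and gene lists were chosen with earlier results of these data known, and 1 gene of the lists is not reported here. Other window sizes, overlap rules, width filters and motif settings were tried. The scripts were tested on simulated data and ran under Python 3.11.15 with pysam 0.24.0, pandas 2.3.3, SciPy 1.17.1 and NumPy 2.4.6.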

Additional observations from a re-analysis of the deposited data

How the results depend on the processing

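No paired analysis was possible because each list combines both replicates and carries no replicate number. For the same reason no replicate could be left out, and a stricter peak threshold was not tried, as no scores are listed. Of the recomputed values, 36 were counted as the same, by their interval or by nearness to the main count, and 10 moved. With a 100 kb flank the ZT12 sites numbered 13. The ZT0 sites then numbered 19, against 27, and were still counted as the same. With a 50 kb flank the ZT0 sites numbered 8, the ZT12 sites 7, and the genes with a ZT12 site 3, since smaller windows hold fewer sites. At that flank 4 genes had a ZT0 site, which was also counted as the same. With only sites at least as wide as the median of their own list, 9 ZT0 and 10 ZT12 sites remained and 50% of the ZT12 sites were shared, as the partner had to be wide as well. With the ZT0 list reduced to its widest sites, as many as the ZT12 list holds, 15 ZT0 sites remained and 60% of the ZT12 sites were shared, while 80.0% of the ZT0 sites were. At the stricter motif threshold 85.2% of the ZT0 sites held a match. Gene coordinates of the study's table, the midpoint rule, an overlap of at least 50% of both sites and a tolerance for a short gap between sites left the shared shares at 66.7% and 90.0%. Beyond these constructions, the causes of the moved values were not tested. Unknown depth limits what absence from a list can say.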

Other observations

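Genes whose products modify or partner PER and CRY proteins gave a further 34 ZT0 sites and 26 ZT12 sites in windows with the same 200 kb flanks. The window lengths differ with the lengths of the genes. They are the casein kinases Csnk1d and Csnk1e, which phosphorylate PER, the ubiquitin ligase subunits Fbxl21 for CRY and Btrc and Fbxw11 for PER, and the partner Timeless. All 6 genes had a site in their windows at both times, beside 79.1% of all protein-coding genes at ZT0 and 72.4% at ZT12. Of the ZT0 sites 22 were shared (64.7%, 95% Wilson interval 47.9 to 78.5%), and of the ZT12 sites 22 were shared (84.6%, 95% Wilson interval 66.5 to 93.8%). Both intervals hold the share over the whole list, which was 56.2% at ZT0 and 83.6% at ZT12. The median distance from the start to the nearest site was 36.4 kb at ZT0 and 54.5 kb at ZT12.

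Timeless had a ZT0 site 0.634 kb from its start and none nearer than 104 kb at ZT12, with 8 sites in its window at ZT0 and 4 at ZT12, of which 3 were shared. Btrc had 9 sites at ZT0 and 8 at ZT12, all 8 of them shared, the nearest at 72.4 kb at both times. Fbxw11 had 2 sites, both shared, the nearest at 16.7 kb. Csnk1e had its nearest site at 23.0 kb at ZT0 and 23.1 kb at ZT12, and Csnk1d at 49.9 kb and 62.2 kb. Fbxl21 had 4 sites at each time, of which 2 were shared. These genes were chosen with earlier results of the data known, and their differences were not tested.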
